A study of Homo sapiens with 9 samples.

Results

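The p53 target genes are genes that the transcription factor p53 switches on when DNA is damaged or a cell is under stress. p53 binds DNA as a tetramer at sites built from a pair of half-sites, and its targets stop the cell cycle, repair DNA, supply nucleotides, start apoptosis or shut p53 down again through MDM2. The list held 35 genes, which were looked up by symbol in the platform annotation. Of these, 31 were measured, each by 1 probe set, out of 17687 named genes in all. BBC3, BTG1, BTG2 and FDXR had no probe set under their symbol and were not analysed here.

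The cells were ASCs of ASC52telo, an adipose-derived stem cell line immortalized with telomerase, kept for 10 days in differentiation media (DM) that hold BMP-4, EGF, ascorbic acid 2-phosphate, hydrocortisone and retinoic acid. All 3 groups received DM, the CID group together with CID-1067700, an inhibitor of the late endosomal GTPase Rab7, at 40 μM, the DMSO group with 0.1% DMSO as the vehicle, and the DM group with nothing further. Each group had 3 Clariom S Human arrays, which the submitters describe as biological replicates without saying whether the cultures were separate. The p-values thus rest on the spread of these arrays, part or all of which may be technical. The share of DMSO in the CID wells is not stated in the sources used here, and all arrays come from 1 cell line.

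Array medians lay between 7.06 and 7.14 on the log2 scale and arrays of 1 group correlated at 0.994 to 0.995, a value across probe sets, which do not count as replicates. Stromal markers were above the array median on every array for 15 of 15 genes, and keratinocyte markers were below it on every array for 15 of 16, KRT5, KRT14 and FLG included. Of the leukocyte markers 8 of 11 were below it on every array and 1 above it on every array. Of the endothelial markers 6 of 10 were below and 3 above, and of the adipocyte markers 7 of 10 were below and 3 above. The mean log2 value of the stromal list lay between 13.75 and 13.83 on the CID arrays, 14.21 and 14.24 on the DMSO arrays, and 14.12 and 14.19 on the DM arrays. With CID, 6 of the 15 stromal markers fell against DMSO as differentially expressed genes (DEGs), against 1.74% of all probe sets. Against DM 2 did, against 0.970%, and COL1A1 fell in both. A DEG had an adjusted p under 0.05 with a fold change of at least 1.5. The part of these markers in the results on p53 target genes was not tested. In such bulk RNA, fewer cells of a type and less RNA per cell cannot be told apart.

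A p53 half-site is a stretch of 10 bases, and its consensus reads alike on both strands. Promoter windows of 300 bases, 250 before and 50 after each annotated start, were taken from RefSeq (GRCh38.p14) and matched 26 of the 31 measured genes with 37 windows. RRM2B, PHLDA3, GADD45A, TP53INP1 and TNFRSF10D had none. Of 19 genes with 1 window that were checked, 17 had the gene's start at this place in the window. Which ones did not is not given here, so the positions of BAX, AEN and RPS27L, with 1 window each, may be off. Genes with several windows, DDB2 and SESN1 among them, were not checked, so their positions rest on the stated layout. An exact half-site stood in 5 of the 37 windows (13.5%), against 6.63% of all 35116 windows, and 2 half-sites at most 13 bases apart in 1, against 0.0285% of all. The 100 bases below are shown for DDB2 and BAX, the DEGs among the p53 target genes, and for SESN1, AEN and RPS27L, which carry a half-site and are described below. They run 5′ to 3′ on the gene's strand with half-sites in capitals.
DDB2, plus strand, chr11:47214900-47214999, positions -74 to 26 from the start: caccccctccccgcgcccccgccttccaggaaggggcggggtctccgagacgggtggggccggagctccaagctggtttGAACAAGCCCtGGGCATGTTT
BAX, plus strand, chr19:48954775-48954874, positions -100 to -1: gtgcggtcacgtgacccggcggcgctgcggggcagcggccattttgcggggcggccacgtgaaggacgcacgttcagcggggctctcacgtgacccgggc
SESN1, minus strand, chr6:109008989-109009088, positions -100 to -1: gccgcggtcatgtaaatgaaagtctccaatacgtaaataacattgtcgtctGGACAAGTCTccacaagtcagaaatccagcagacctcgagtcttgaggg
AEN, plus strand, chr15:88621240-88621339, positions -100 to -1: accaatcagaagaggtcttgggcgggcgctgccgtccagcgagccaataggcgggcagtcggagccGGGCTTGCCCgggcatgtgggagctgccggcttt
RPS27L, minus strand, chr15:63157478-63157577, positions -100 to -1: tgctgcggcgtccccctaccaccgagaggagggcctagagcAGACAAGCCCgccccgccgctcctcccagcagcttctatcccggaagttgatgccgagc
DDB2 held both half-sites just after its start, at positions 6 to 15 and 17 to 26 with 1 base between them. SESN1, AEN and RPS27L held 1 each, at positions -49 to -40, -34 to -25 and -59 to -50, and PLK2 held 1 at -132 to -123. DDB2 has 2 annotated windows and SESN1 has 3, and in each gene 1 of them carried the match. No half-site was found in the BAX window, which says only that these letters are not in it.

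Across the 3 groups, the p53 target genes were most often lowest in the vehicle group. DMSO had the lowest mean for 21 of 31 genes, against 34.6% of all probe sets, CID for 7, against 33.6%, and DM for 3, against 31.0%. Every DMSO array lay below all 6 arrays of CID and DM for 8 genes, DDB2, BAX, EDA2R, SPATA18, AEN, TP53I3, RPS27L and PERP, whereas this held for 2.32% of all probe sets. The DMSO arrays lay above all others for APAF1, against 2.16% of all. Every CID array lay above all others for CCNG1, BAX, PERP, PHLDA3 and ZMAT3, against 4.42% of all, and below them for SESN1, against 5.33%. Every DM array lay above all others for TP53INP1, against 1.42%, and below them for no member of the list, against 1.26%. Relative to each gene's mean over the 9 arrays, the median p53 target gene deviated by 0.08, 0.12 and 0.018 on the log2 scale on the CID arrays, by -0.15, -0.054 and -0.12 on the DMSO arrays, and by 0.09, 0.09 and 0.00 on the DM arrays. The groups CID and DM overlapped in this measure. The DMSO arrays lay below both, by little for DMSO 2 (-0.054) against DM 3 (0.00). Whole-array medians were also lowest with DMSO, at 7.06, 7.08 and 7.07, against 7.09 to 7.11 with CID and 7.105 to 7.14 with DM. With the arrays centred on their medians, the median log2 fold change of DMSO against DM went from -0.15 to -0.098.

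**Figure D1:**
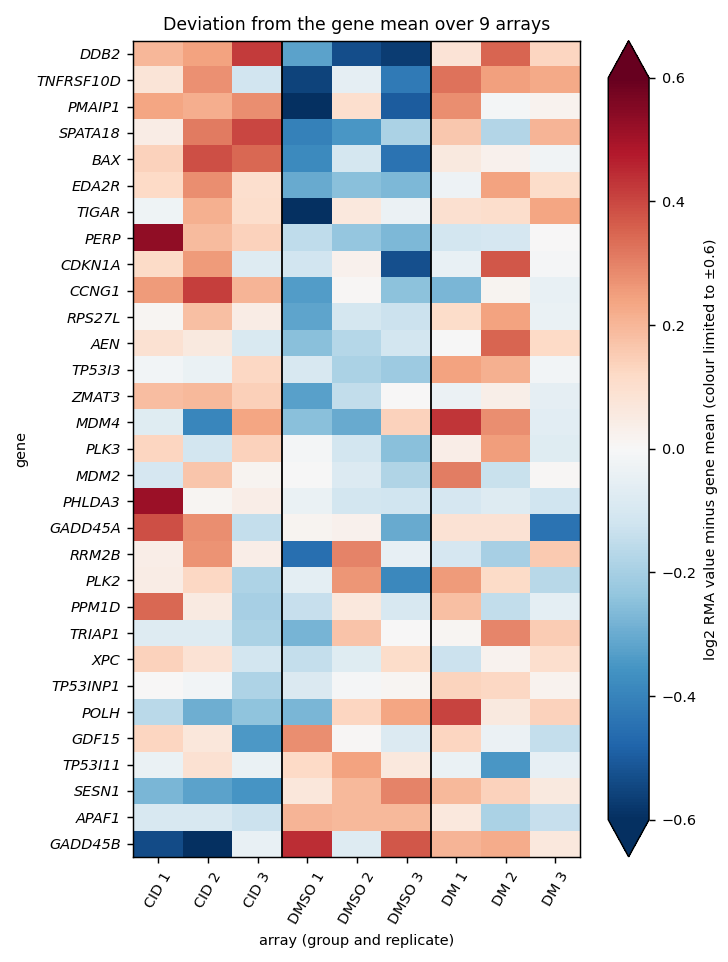
Deviation of each of the 31 measured p53 target genes (rows) from its own mean over 9 arrays, in log2 units, for the CID, DMSO and DM arrays (columns), ordered by the DMSO mean minus the average of the CID and DM means. The upper rows, from DDB2 to EDA2R, are blue on the DMSO arrays (except DMSO 2 for PMAIP1) and mostly red on the others, while GADD45B and SESN1 at the foot are blue on the CID arrays.

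ASCs treated with CID were compared with those that received the vehicle. DDB2 and BAX, 2 of the 31 p53 target genes, passed the test, and both were upregulated with CID. DDB2, which finds UV lesions for nucleotide excision repair, had log2 values of 9.34, 9.38 and 9.56 with CID, 8.82, 8.61 and 8.57 with DMSO, and 9.22, 9.49 and 9.27 with DM. The 3 DMSO arrays were the lowest of the 9, and the CID and DM arrays overlapped. DDB2 rose 1.69-fold with CID against DMSO (log2 fold change 0.76, SE 0.13, limma adjusted p = 0.0109 with Benjamini-Hochberg adjustment over all probe sets). BAX, which opens the outer mitochondrial membrane in apoptosis, had 12.91, 13.16 and 13.12 with CID, 12.39, 12.67 and 12.33 with DMSO, and 12.83, 12.80 and 12.75 with DM. All CID arrays were above all DM arrays, and all DM arrays were above all DMSO arrays. BAX rose 1.52-fold with CID against DMSO (log2 fold change 0.60, SE 0.13, limma adjusted p = 0.0334).
A DEG here is a gene at an adjusted p under 0.05 with a fold change of at least 1.5, and 2.41% of all probe sets were DEGs of CID against DMSO, with 0.667% above and 1.74% below. The DDB2 call was lost without CID 3 (adjusted p = 0.0534) or DMSO 3 (0.0544) and the BAX call without CID 1 (0.0504), CID 2 (0.115), CID 3 (0.115), DMSO 1 (0.105) or DMSO 3 (0.124). BAX also lay below the fold threshold when the arrays were centred on their medians (log2 fold change 0.57) and passed no adjusted threshold when only the 6 arrays of these groups were fitted (adjusted p = 0.0761), and with the methods' t-test neither gene was called, where 0.0979% of all probe sets were.

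SESN1 stood just outside the definition of a DEG. It encodes sestrin 1, which holds back the growth kinase mTORC1, and had 10.10, 10.05 and 10.02 with CID, 10.44, 10.57 and 10.67 with DMSO, and 10.57, 10.51 and 10.43 with DM. The CID arrays were below all others, and the DMSO and DM arrays overlapped. Its log2 fold change for CID against DMSO was -0.50 (SE 0.11, limma adjusted p = 0.0396), a change of 1.42-fold that is under the fold threshold. Its adjusted p was over 0.05 without any 1 of the 6 CID and DMSO arrays (0.0553 to 0.142), with only these 6 arrays fitted (0.0756), with the replicate block (0.0804) and with the methods' t-test (0.120). Next outside were PERP, SPATA18 and EDA2R, at adjusted p-values of 0.0698, 0.0727 and 0.0804.
At an unadjusted p under 0.05, 9 of the 31 genes were higher with CID than with DMSO, against 7.20% of all probe sets, and 3 were lower, against 7.96%. The methods' t-test gave 12 in all, against 13.9%. All CID arrays were above all DMSO arrays for 12 genes, against 10.6% of all probe sets, and below them for 2, against 10.7%. The median log2 fold change of the 31 was 0.19, with 23 positive values, against 0.02 over all probe sets, of which 53.2% were positive.

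Among the genes of apoptosis, 9 were measured, of which BAX was a DEG of CID against DMSO and the others did not pass the test. PMAIP1, the BH3-only protein NOXA, had 6.49, 6.47 and 6.53 with CID, 5.63, 6.35 and 5.75 with DMSO, and 6.53, 6.24 and 6.27 with DM. DMSO 1 and DMSO 3 were well below the rest, whereas DMSO 2 lay within the range of the DM arrays. Its log2 fold change for CID against DMSO was 0.59 (SE 0.18, limma adjusted p = 0.129), and without DMSO 2 it was 0.81 (adjusted p = 0.0231). It was 0.45 without DMSO 1 (limma adjusted p = 0.317) and 0.51 without DMSO 3 (0.306).
SPATA18, which takes part in the quality control of mitochondria, had 7.17, 7.44 and 7.53 with CID, 6.72, 6.78 and 6.94 with DMSO, and 7.29, 6.95 and 7.33 with DM. The DMSO arrays were the lowest of the 9. For CID against DMSO its log2 fold change was 0.57 (SE 0.15, limma adjusted p = 0.0727).
PERP, a membrane protein of desmosomes and of p53-driven apoptosis, had 12.05, 11.71 and 11.66 with CID, 11.37, 11.29 and 11.25 with DMSO, and 11.41, 11.42 and 11.52 with DM. The 3 groups did not overlap, with CID on top and DMSO at the bottom, and CID 1 was far above the other arrays. The log2 fold change of PERP for CID against DMSO was 0.50 (SE 0.13, limma adjusted p = 0.0698).
ZMAT3, an RNA-binding zinc finger protein, had 13.09, 13.10 and 13.05 with CID, 12.58, 12.76 and 12.91 with DMSO, and 12.87, 12.94 and 12.85 with DM, and its log2 fold change for CID against DMSO was 0.33 (limma adjusted p = 0.200). APAF1, the scaffold of the apoptosome, ran the other way. It had 9.44, 9.44 and 9.41 with CID, 9.74, 9.73 and 9.73 with DMSO, and 9.60, 9.35 and 9.40 with DM, with the DMSO arrays above all others, and a log2 fold change for CID against DMSO of -0.30 (limma adjusted p = 0.212). AEN, a nuclease of apoptosis, had 11.78, 11.75 and 11.60 with CID, 11.44, 11.52 and 11.58 with DMSO, and 11.69, 12.04 and 11.81 with DM, and its DMSO arrays were the lowest of the 9. PHLDA3, an inhibitor of the kinase AKT, and TRIAP1, which holds back apoptosis, differed between CID and DMSO by log2 values of 0.28 (limma adjusted p = 0.393) and -0.08 (0.843). PHLDA3 was at 9.56 on CID 1, against 9.06 and 9.09 on CID 2 and CID 3.

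**Figure D2:**
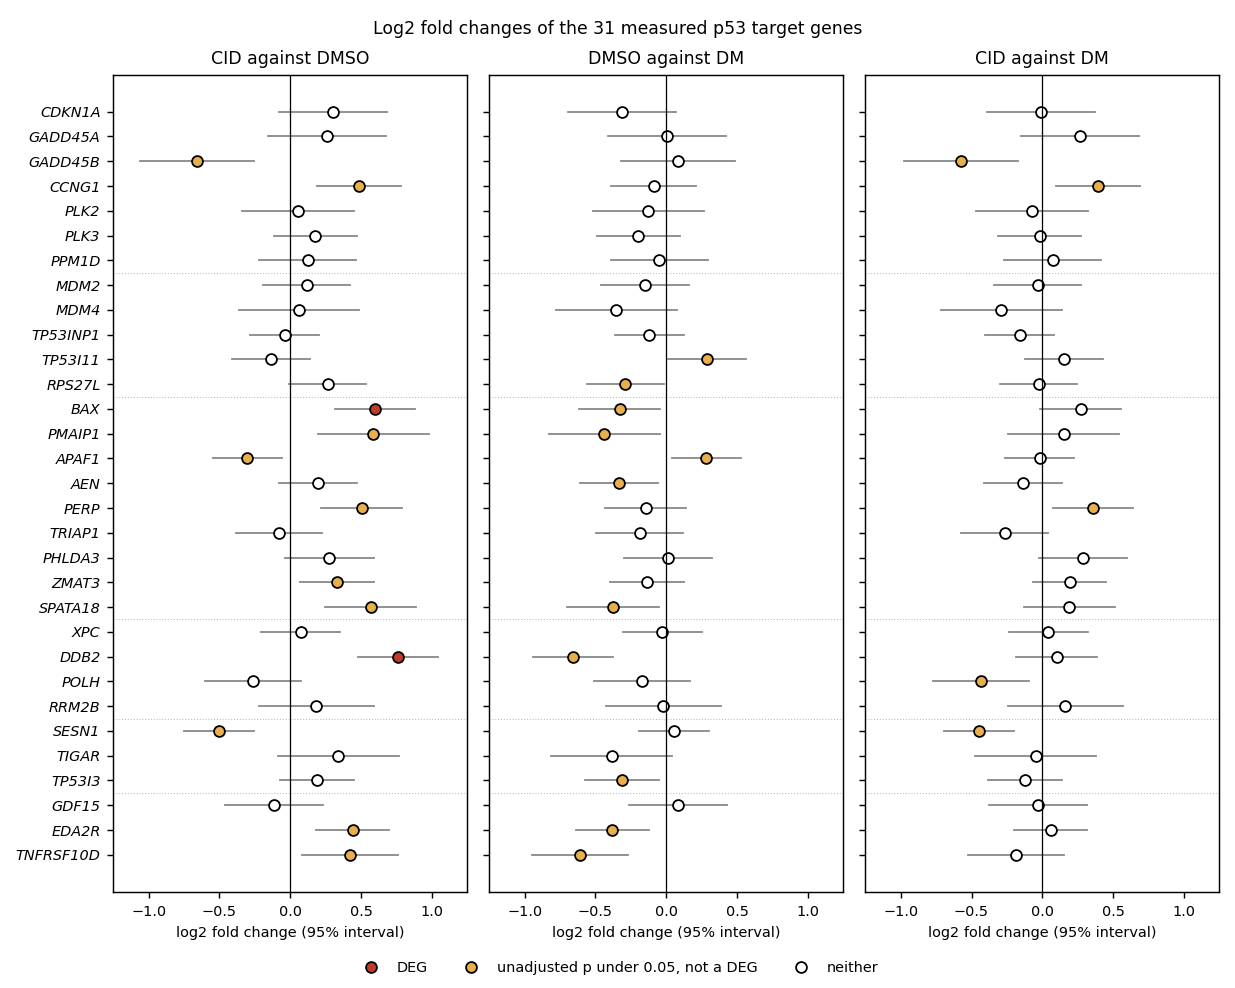
Log2 fold change (points, x axis) with its 95% interval (lines) for each of the 31 measured p53 target genes, in 3 panels (CID against DMSO, then DMSO against DM alone, then CID against DM), with dotted lines between groups of genes by role. Filled red points are DEGs, DDB2 and BAX for CID against DMSO, and yellow points are genes at an unadjusted p under 0.05 that are no DEGs.

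None of the 7 measured genes grouped here under cell cycle arrest, PPM1D among them, was a DEG in any comparison. Over all probe sets, DEGs were 2.41% for CID against DMSO, 0.00466% for DMSO against DM and 1.35% for CID against DM. None among 7 is close to these shares. CDKN1A, which encodes the cyclin-dependent kinase inhibitor p21, had 13.96, 14.10 and 13.77 with CID, 13.73, 13.87 and 13.32 with DMSO, and 13.80, 14.22 and 13.84 with DM. The groups overlapped, and DMSO 3 was the lowest array. Its log2 fold changes were 0.30 for CID against DMSO (95% interval -0.08 to 0.69, limma adjusted p = 0.458), -0.31 for DMSO against DM (-0.70 to 0.07, 0.773) and -0.01 for CID against DM (-0.39 to 0.37, 0.989).
CCNG1, which encodes cyclin G1, had 14.15, 14.31 and 14.10 with CID, 13.56, 13.90 and 13.65 with DMSO, and 13.62, 13.91 and 13.85 with DM. All CID arrays were above all others, while the DMSO and DM arrays overlapped, and its log2 fold changes were 0.48 against DMSO (limma adjusted p = 0.0966) and 0.39 against DM (adjusted p = 0.236). GADD45B, a stress sensor upstream of p38 and JNK kinases, had 10.56, 10.45 and 11.05 with CID, 11.54, 11.02 and 11.47 with DMSO, and 11.30, 11.32 and 11.16 with DM. CID 1 and CID 2 were the lowest arrays, and CID 3 overlapped with DMSO 2. GADD45B had a log2 fold change of -0.66 for CID against DMSO (limma adjusted p = 0.0944) and of -0.57 for CID against DM (limma adjusted p = 0.195). For CID against DMSO it stayed uncalled in 15 of 16 alternatives. Its adjusted p ran from 0.0236, with limma under a trended and robust variance prior, to 0.375 with the methods' t-test. GADD45A, its relative, PLK2 and PLK3, kinases of the polo family, and PPM1D, a phosphatase that dampens p53 signalling, had log2 fold changes between 0.05 and 0.26 for CID against DMSO, and their arrays overlapped in all 3 comparisons.

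In the feedback on p53, MDM2, the ubiquitin ligase that marks p53 for degradation, had 12.53, 12.80 and 12.65 with CID, 12.63, 12.55 and 12.45 with DMSO, and 12.94, 12.50 and 12.64 with DM. The groups overlapped, and the 95% interval of its log2 fold change was -0.19 to 0.42 for CID against DMSO, -0.46 to 0.16 for DMSO against DM and -0.34 to 0.27 for CID against DM. MDM4, the partner of MDM2, had log2 fold changes of -0.35 for DMSO against DM (limma adjusted p = 0.769) and -0.29 for CID against DM (0.588), with overlapping arrays. RPS27L, a ribosomal protein that binds MDM2, had 11.43, 11.60 and 11.46 with CID, 11.10, 11.31 and 11.29 with DMSO, and 11.53, 11.66 and 11.38 with DM. The 3 DMSO arrays were the lowest of the 9, and the log2 fold change was 0.26 for CID against DMSO (limma adjusted p = 0.346) and -0.29 for DMSO against DM (0.695). TP53I11 was placed with these genes for the description only. It had 11.04, 11.17 and 11.04 with CID, 11.20, 11.32 and 11.14 with DMSO, and 11.04, 10.73 and 11.03 with DM, with every DMSO array above every DM array. TP53INP1, a cofactor of p53 and of autophagy, was above both other groups on all DM arrays, with log2 fold changes of -0.12 for DMSO against DM (limma adjusted p = 0.869) and -0.16 for CID against DM (0.605).

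Of the 4 genes of DNA repair and nucleotide supply, DDB2 was a DEG of CID against DMSO as given above, and 3 were not. XPC, which finds lesions in the same repair pathway as DDB2, had overlapping groups and a 95% interval of -0.21 to 0.35 for CID against DMSO. POLH, a polymerase that copies past UV lesions, had 12.50, 12.37 and 12.42 with CID, 12.39, 12.79 and 12.90 with DMSO, and 13.07, 12.72 and 12.80 with DM. Its CID arrays were below all DM arrays, with a log2 fold change for CID against DM of -0.43 (limma adjusted p = 0.251). RRM2B, a subunit of ribonucleotide reductase, had DMSO arrays spread from 11.82 to 12.57, a range that holds all CID and DM arrays, and none of its comparisons passed the test.
In metabolism, TIGAR, which turns glycolysis towards the pentose phosphate pathway, had 1 low array, DMSO 1 at 8.89, while the other 8 lay between 9.61 and 9.88. Its log2 fold change for CID against DMSO was 0.34 (limma adjusted p = 0.454). TP53I3, a quinone oxidoreductase, had 10.17, 10.15 and 10.31 with CID, 10.09, 10.00 and 9.97 with DMSO, and 10.43, 10.40 and 10.17 with DM. Its DMSO arrays were the lowest of the 9, and its log2 fold change for CID against DMSO was 0.19 (limma adjusted p = 0.500).

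Among the secreted factor and the surface receptors, EDA2R, a receptor of ectodysplasin A2, had 12.35, 12.51 and 12.33 with CID, 11.93, 11.98 and 11.96 with DMSO, and 12.20, 12.47 and 12.34 with DM. The DMSO arrays lay close together and below all others. Its log2 fold change was 0.44 for CID against DMSO (SE 0.12, limma adjusted p = 0.0804) and -0.38 for DMSO against DM (SE 0.12, adjusted p = 0.631). TNFRSF10D, a decoy receptor that binds TRAIL without passing on a death signal, had 10.41, 10.61 and 10.22 with CID, 9.78, 10.28 and 9.91 with DMSO, and 10.66, 10.58 and 10.56 with DM. All DMSO arrays were below all DM arrays, and DMSO 2 overlapped with the CID arrays. GDF15, a cytokine of cell stress, had overlapping groups and 95% intervals of -0.46 to 0.23 for CID against DMSO and -0.26 to 0.43 for DMSO against DM.

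The vehicle itself was compared with DM alone. None of the 31 genes was a DEG of DMSO against DM by limma, and 1 of all probe sets was (0.00466%). With the methods' t-test none was called either. At an unadjusted p under 0.05, limma gave 11 of the 31 genes, against 6.98% of all probe sets. Of these, 9 were lower with DMSO, against 4.04%, and 2 higher, against 2.93%, and the methods' t-test gave 7 lower and 1 higher, where 5.95% of all passed in either direction. The 9 were DDB2, TNFRSF10D, PMAIP1, EDA2R, SPATA18, AEN, BAX, TP53I3 and RPS27L, and the 2 were APAF1 and TP53I11. The count of 11 was 4 without DMSO 1, 6 without DM 1 and 5 without DM 2. Shares over all probe sets with these arrays left out are not given here.
DDB2 again had the lowest unadjusted p (3.43e-04) and a log2 fold change of -0.66 (SE 0.13, limma adjusted p = 0.472), followed by TNFRSF10D with -0.61 (unadjusted p = 0.00219, adjusted p = 0.540). For BAX the log2 fold change was -0.33 (adjusted p = 0.677) and for PMAIP1 -0.44 (adjusted p = 0.691), which became -0.66 without DMSO 2 (adjusted p = 0.606) and -0.30 without DMSO 1 (0.845). None of these differences passed the adjustment over all probe sets. All DMSO arrays were below all DM arrays for 11 genes, against 6.25% of all probe sets, and above them for 2, against 5.54%.
The median log2 fold change of the 31 genes was -0.15, with 24 negative and 7 positive values, against a median of 0.00 over all probe sets, of which 50.0% were negative and 49.5% positive. With the arrays centred on their medians it was -0.10. DMSO against DM and CID against DMSO use the same DMSO arrays, so that the 2 sets of values are not separate evidence of low values in the vehicle group.

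**Figure D3:**
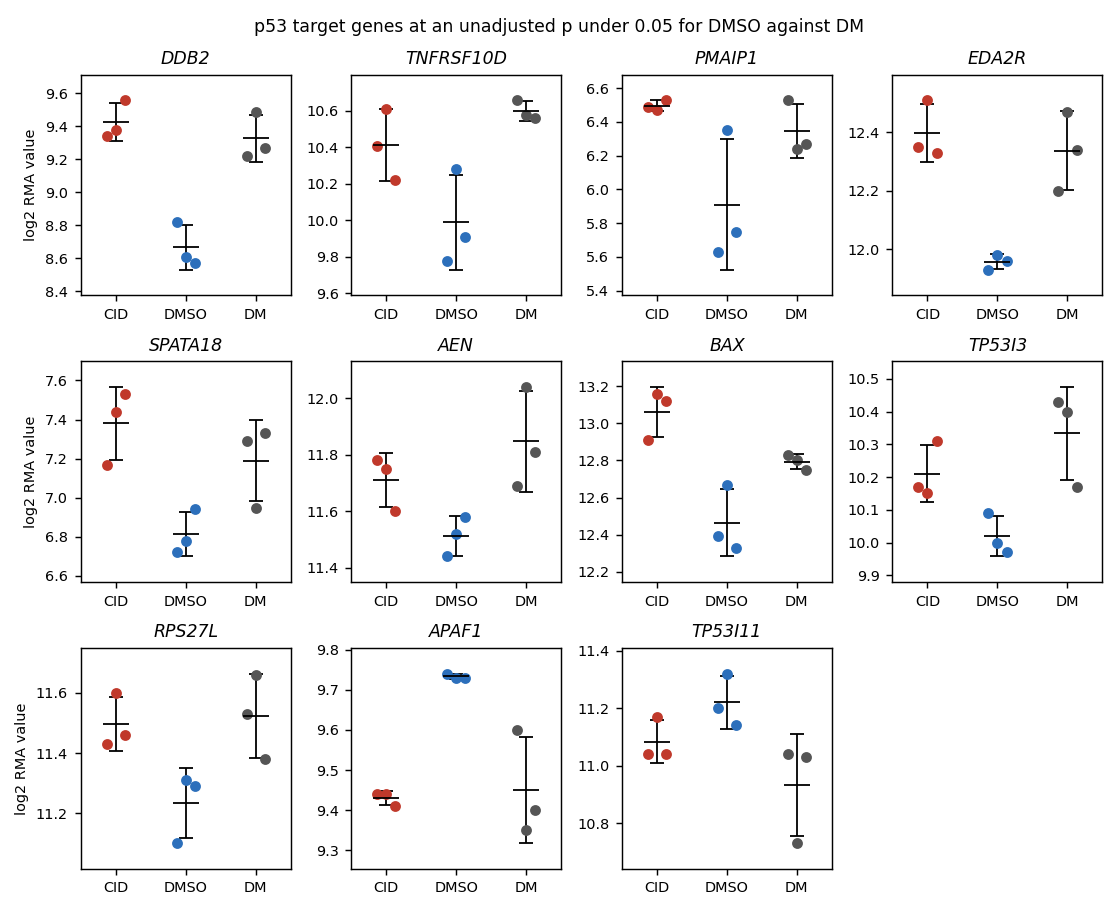
Log2 RMA value (y axis, a scale of its own in each panel) on each CID, DMSO and DM array for the 11 p53 target genes at an unadjusted p under 0.05 for DMSO against DM, with the group mean and SD as bars (3 arrays per group). DMSO lies lowest in the first 9 panels and highest for APAF1 and TP53I11, with the widest DMSO spread for PMAIP1.

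CID was also compared with DM alone, a comparison in which the groups differ in both the inhibitor and any vehicle it came in. None of the 31 genes was a DEG by limma, against 1.35% of all probe sets (0.378% higher and 0.970% lower), and the methods' t-test called none, against 0.00932% of all. At an unadjusted p under 0.05, limma gave 2 genes higher, CCNG1 and PERP, against 5.74% of all probe sets, and 3 lower, GADD45B, POLH and SESN1, against 6.90%, and the methods' t-test gave 8 in all, against 11.1% of all probe sets under that test. Without DM 1, limma gave 3 in place of 5, with the share over all probe sets for that fit not given here. SESN1 came nearest to the threshold, with a log2 fold change of -0.45 (SE 0.11, limma adjusted p = 0.0882). All CID arrays were above all DM arrays for 5 genes, against 8.68% of all probe sets, and below them for 5, against 9.22%. The median log2 fold change was -0.02, against 0.01 over all probe sets, with 14 positive and 17 negative values, against 51.3% and 48.5% of all. DDB2, at 0.10 with a 95% interval of -0.18 to 0.38, and EDA2R, at 0.06 (-0.20 to 0.32), had values near 0 here, while BAX had 0.27 (-0.01 to 0.55, adjusted p = 0.424).

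A further list of 47 measured p53 targets, from the same pathway but outside the 31 genes, had a median log2 fold change of -0.01 for CID against DMSO, 0.00 for DMSO against DM alone and -0.01 for CID against DM. In CID against DMSO, 2 of the 47 were DEGs that rose, against 0.667% of all probe sets, and 2 were DEGs that fell, against 1.74%. CYFIP2, a regulator of actin, rose with a log2 fold change of 1.11 (limma adjusted p = 0.0191), on arrays at 6.85, 7.44 and 6.99 with CID, 5.66, 6.24 and 6.05 with DMSO, and 6.21, 6.82 and 6.55 with DM. CMBL, a hydrolase, rose with 0.71 (limma adjusted p = 0.0127). SESN3, a sestrin like SESN1, fell with -0.97 (limma adjusted p = 0.00314) on arrays at 10.68, 10.87 and 10.96 with CID, 11.74, 11.95 and 11.73 with DMSO, and 11.42, 11.57 and 11.30 with DM, where every CID array was below all others as for SESN1, and CASP1, the protease of the inflammasome, fell with -0.69 (0.0486). For DMSO against DM none of the 47 was a DEG, against 0.00466% of all probe sets. At an unadjusted p under 0.05, limma put 5 above, against 2.93% of all probe sets, and 2 below, against 4.04%. The largest of these values were 0.57 for TSC2 and 0.55 for TGFA among the higher, and -0.54 for CYFIP2 and -0.45 for TNFRSF10A, the TRAIL receptor, among the lower. For CID against DM none of the 47 was a DEG either, against 1.35% of all probe sets. At the same unadjusted threshold 5 were above, against 5.74% of all probe sets, and 5 below, against 6.90%. CYFIP2 (0.57) and PGF, a growth factor of vessels (0.51), had the highest values and SESN3 (-0.59) and CASP1 (-0.59) the lowest, at limma adjusted p-values between 0.0546 and 0.276.
Of 23 measured regulators of p53, none was a DEG in any comparison by limma. Of all probe sets, 2.41% were for CID against DMSO, 0.00466% for DMSO against DM and 1.35% for CID against DM. At an unadjusted p under 0.05, 1 gene passed for CID against DMSO, against 15.2% of all probe sets. It was NPM1, a nucleolar chaperone (0.52, limma adjusted p = 0.0417, under the fold threshold). For DMSO against DM 1 passed, against 6.98% (CHEK2, a checkpoint kinase, 0.38, limma adjusted p = 0.685). For CID against DM 2 passed, against 12.6% (NPM1, and HIPK2, a kinase of p53).

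Genes of proliferation, amino acid stress and the immediate early response were read on the same arrays. Of 30 proliferation genes, which p53 represses through p21, none was a DEG in any comparison by limma. Shares over all probe sets were 2.41% for CID against DMSO, 0.00466% for DMSO against DM and 1.35% for CID against DM. With no adjustment and p under 0.05, 3 lay higher for CID against DMSO, against 7.20% of all probe sets, and 2 lower, against 7.96%. None passed for DMSO against DM, against 6.98%. For CID against DM 1 was higher, against 5.74%, and 3 were lower, against 6.90%. TOP2A, a topoisomerase of dividing cells, and CENPF, a kinetochore protein, had the highest values for CID against DMSO (0.88 and 0.81, limma adjusted p = 0.0632 and 0.145). The replication factor CDC6 (-0.53) and the kinase AURKB (-0.41) had the lowest of those 5. For CID against DM, CDC6 had -0.86 and RRM2 -0.74, and MCM3 was the higher one with 0.32 (limma adjusted p = 0.118, 0.303 and 0.281). The mean log2 value of the list lay between 9.10 and 9.38 on the CID arrays, 8.90 and 9.31 on the DMSO arrays, and 9.06 and 9.44 on the DM arrays, so that the groups overlapped.
Of 28 targets of ATF4, a factor of amino acid stress, 1 was a DEG of CID against DMSO, against 2.41% of all probe sets. It was SLC7A11, a cystine transporter (0.94, limma adjusted p = 0.0199), followed by its partner SLC3A2 (0.54, 0.0591). Against DM they had 0.83 and 0.39, and CTH and STC2 had -0.45 and -0.43, none of them a DEG. PPP1R15A, a phosphatase subunit, was the 1 gene at an unadjusted p under 0.05 for DMSO against DM (-0.54, limma adjusted p = 0.632), against 6.98% of all probe sets. The list's mean lay between 11.51 and 11.63 on the CID arrays, 11.43 and 11.46 on the DMSO arrays, and 11.48 and 11.69 on the DM arrays, and every DMSO array was below all others. Its median log2 fold change was 0.10 for CID against DMSO and -0.10 for DMSO against DM. Whether ATF4 has a part in the values of the p53 target genes was not tested.
Of 27 immediate early genes, the first to respond to growth factors and stress, the nuclear receptors NR4A1 and NR4A3 and the factor EGR3 fell with CID against DMSO and against DM, 2 comparisons that share the CID arrays. FOSL1, a partner of JUN, rose against DMSO. Of all probe sets, 1.74% were DEGs that fell against DMSO and 0.970% DEGs that fell against DM, and 0.667% rose against DMSO. NR4A1 had log2 fold changes of -1.71 against DMSO (adjusted p = 0.00774) and -1.37 against DM (adjusted p = 0.0335), NR4A3 had -1.30 and -1.33, EGR3 had -1.13 and -1.02, and FOSL1 had 1.17 against DMSO (adjusted p = 0.00279) and 0.50 against DM (adjusted p = 0.178). FOSL1 was also the 1 gene at an unadjusted p under 0.05 for DMSO against DM (-0.67, limma adjusted p = 0.499), against 6.98% of all probe sets. The list's mean was 10.51 to 10.58 on the CID arrays, 10.67 to 10.87 on the DMSO arrays, and 10.79 to 10.94 on the DM arrays.

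**Figure D4:**
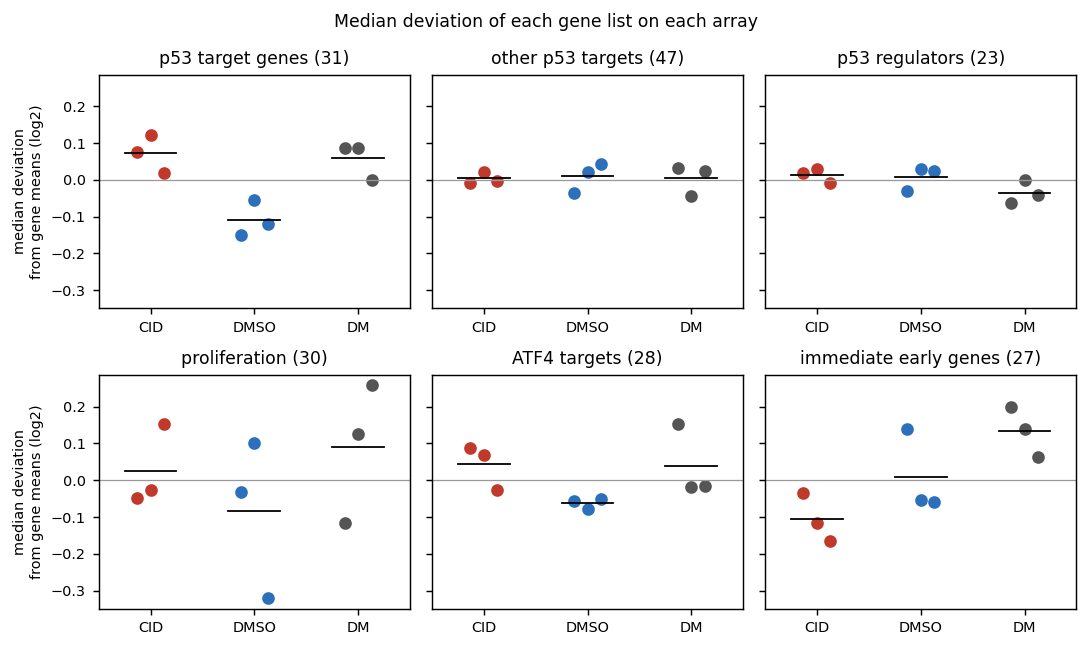
Median deviation of the genes of a list from their own means over 9 arrays (y axis, log2 units) on each CID, DMSO and DM array (points), with the mean of each group (lines), for the 31 p53 target genes and 5 other lists. The p53 target genes are lowest on the DMSO arrays (-0.15 to -0.054), as are the ATF4 targets (-0.078 to -0.05), while the groups overlap for the other p53 targets and the immediate early genes have their lowest group mean with CID.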

How the data were processed

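RNA of 9 samples was hybridised to Clariom S Human arrays. The authors deposited log2 values, summarised per probe set by RMA with Transcriptome Analysis Console, with neither its version nor the variant of RMA given in the sources used here. RMA makes the arrays alike in distribution and compresses low values. All probe sets were kept as deposited. Symbols came from the platform annotation, which gave 1 symbol to 17709 probe sets and none to 3739, and where a gene has several probe sets the one with the highest mean was used. The p53 target genes and the other lists were chosen with earlier results of these data known.

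Groups came from the submitters' labels. All 9 arrays entered 1 limma fit (version 3.58.1, R 4.3.3, 6 residual degrees of freedom) with 3 contrasts, and p-values were adjusted by the method of Benjamini and Hochberg over all probe sets. A DEG had an adjusted p under 0.05 and a linear fold change of at least 1.5. The fit was tested on simulated data. Intervals are 95% from the moderated standard error and their precision is limited by having 3 arrays a group. Values are shown per array for the genes at an unadjusted p under 0.05 in any comparison and for CDKN1A and MDM2. Of the other lists, apart from the cell type markers, all DEGs and the largest values in each direction are named. Alternatives changed the variance prior, the arrays fitted, the normalization, the filter on dim probe sets, the fold threshold, the replicate block, the test and single arrays. The methods' t-test is the independent samples test that the study names for its measurements in general and not for the arrays. Promoter windows were matched with Python 3.11.15.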

Additional observations from a re-analysis of the deposited data

How the results depend on the processing

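The count of p53 target genes that were DEGs of CID against DMSO, 2, became 0 at a log2 fold change of at least 1.5 and with the methods' t-test, and 1 with only the 6 arrays compared and 1 with median centring. With a trended and robust variance prior it was 3, with GADD45B gained as a lower gene. Under that prior CCNG1, PERP, EDA2R and SESN1 had limma adjusted p-values of 0.0110, 0.0131, 0.0120 and 0.0112, with fold changes under the threshold. Leaving out 1 array at a time the count lay between 0 and 3, with PMAIP1 gained without DMSO 2. It was 0 without CID 3 and without DMSO 3, where DEGs over all probe sets were 264 and 266, against 517 with all arrays. Genes at an unadjusted p under 0.05 for CID against DM, 5, became 8 with the methods' t-test and lay between 3 and 7 with 1 array left out, and those for DMSO against DM, 11, lay between 4 and 10, with the lowest count without DMSO 1. Where no share over all probe sets is printed for a setting, these counts describe the list alone. The median log2 fold change was between -0.045 and 0.042 for CID against DM with 1 array left out, where it kept its sign in 10 of 16 alternatives, between 0.16 and 0.25 for CID against DMSO, and between -0.20 and -0.12 for DMSO against DM, where median centring gave -0.098. In 28 comparisons of single genes, the sign was kept in all 448 alternatives, with 11 that lost and 2 that gained a call as a DEG. These 28 were chosen for an unadjusted p under 0.05 in the same data. Alternatives that change only the variance prior, the test or the filter leave the log2 fold change as it was. So do the replicate block, the fit of only the 6 arrays compared and the choice of probe set, as each gene had 1. The sign could not differ in any of these, so its being kept there is no separate support. Median centring moved the median of all probe sets by at most 0.05 on the log2 scale.

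Deviations of same-numbered samples correlated between -0.052 and 0.068. Whether the numbers pair the samples is not stated in the sources used here, and weak correlations cannot exclude it. With the replicate block, the counts of DEGs among the p53 target genes were 2 for CID against DMSO, 0 for DMSO against DM and 0 for CID against DM, and those over all probe sets were 507, 0 and 275, against 517, 1 and 289 without it. In CID against DMSO 6 of 6 arrays correlated best with their own number, in DMSO against DM 2 of 6 and in CID against DM 1 of 6, which is a hint from the data and not the design.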
